A study of Homo sapiens with 11 samples.

Results

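The butyrophilins BTN3A1, BTN3A2, BTN3A3, BTN2A1 and BTN2A2 are 5 of the 35303 genes in the count file, chosen by symbol because their levels with HIV-1+LTA had been seen to differ within batches from those with HIV-1 or PBS. Those treatment values are therefore given as a description, with no test. All 5 genes had counts in every library and all 5 were among the 16117 genes that passed the filter on low counts. RNA was sequenced from LX-2, a human cell line derived from liver stellate cells and given as wild type in the labels. Cells received PBS, HIV-1 Bal at 0.1 MOI (multiplicity of infection), or virus at that dose plus 1 ug/ml of LTA (lipoteichoic acid, a molecule of the wall of Gram-positive bacteria), and were taken at 24 h. Each group had 3 libraries, 1 from each of 3 batches named in the labels, with 50.6 to 90.6 M counts per library. No library had LTA without virus, and the labels do not say whether the libraries of a group came from separate cultures, so the spread between them may be technical.

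Butyrophilins are membrane proteins of the immunoglobulin superfamily. BTN3A1 binds phosphoantigens, small pyrophosphates such as those made in the mevalonate pathway, through its intracellular domain and, together with BTN2A1, makes a cell visible to gamma delta T cells that carry the Vgamma9Vdelta2 receptor. BTN2A1 is the partner that binds the receptor's gamma chain. BTN3A2, which lacks the intracellular domain, and BTN3A3 are close relatives of BTN3A1 that pair with it, and BTN2A2 is a relative of BTN2A1 known as an inhibitor of T cell activation. In blood and liver the Vgamma9Vdelta2 cells are known for responses to microbial phosphoantigens.

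The 5 genes lie side by side on the plus strand of chromosome 6 (hg19), over 111 kb from 26365387 to 26476849, and all are protein coding. BTN3A2 runs from 26365387 to 26378548, BTN2A2 from 26383324 to 26395102, BTN3A1 from 26402465 to 26415436, BTN3A3 from 26440700 to 26453643 and BTN2A1 from 26458132 to 26476849. None of them overlaps another butyrophilin gene. The pseudogene BTN2A3P lies between BTN3A1 and BTN3A3, at 26422347 to 26431843.

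Promoter windows, from 250 bases before to 50 bases after a gene's start, were taken from RefSeq (GRCh38.p14), which gave entries for 3 of the 5 genes, BTN3A2, BTN3A3 and BTN2A1, and none for BTN3A1 and BTN2A2. The windows are shown so that the sequences of these 3 genes can be read side by side. A link between these sequences and the levels of the genes was not tested. They are on the plus strand, at chr6:26364948-26365247 for BTN3A2, chr6:26440254-26440553 for BTN3A3 and chr6:26457705-26458004 for BTN2A1. Capitals mark 2 sets of letters searched on both strands (a CCAAT of the other strand reads ATTGG), AGCAACNG (the core of an X1 box, an element known from promoters of major histocompatibility genes) and CCAAT.
BTN3A2: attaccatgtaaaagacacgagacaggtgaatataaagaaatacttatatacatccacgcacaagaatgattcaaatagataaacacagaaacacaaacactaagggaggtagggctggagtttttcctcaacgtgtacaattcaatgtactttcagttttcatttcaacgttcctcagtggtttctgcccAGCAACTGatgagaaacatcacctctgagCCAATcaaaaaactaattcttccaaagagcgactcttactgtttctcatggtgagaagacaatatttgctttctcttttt
BTN3A3: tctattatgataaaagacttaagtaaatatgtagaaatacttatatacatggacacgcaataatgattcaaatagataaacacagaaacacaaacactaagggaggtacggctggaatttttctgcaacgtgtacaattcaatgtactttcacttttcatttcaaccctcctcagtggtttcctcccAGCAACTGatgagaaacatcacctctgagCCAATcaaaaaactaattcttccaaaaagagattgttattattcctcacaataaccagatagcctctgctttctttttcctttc
BTN2A1: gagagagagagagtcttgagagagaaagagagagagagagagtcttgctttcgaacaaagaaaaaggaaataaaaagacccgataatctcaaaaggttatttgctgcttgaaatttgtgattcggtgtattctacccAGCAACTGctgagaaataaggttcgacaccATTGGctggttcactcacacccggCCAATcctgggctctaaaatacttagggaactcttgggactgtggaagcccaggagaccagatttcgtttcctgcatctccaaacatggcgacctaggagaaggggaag
The windows of BTN3A2 and BTN3A3 were identical at 253 of 305 aligned columns (83.0%), against 47.5% for BTN3A2 with BTN2A1 and 48.7% for BTN3A3 with BTN2A1. The X1 letters began at -59 in BTN3A2, -63 in BTN3A3 and -113 in BTN2A1, counted from the start site, and a CCAAT in the same orientation followed at -30, -34 and -59. BTN2A1 held a second CCAAT on the other strand at -83. Of 35116 RefSeq windows of this length, 1479 (4.21%) held the X1 letters, 34.6% held CCAAT and 553 (1.57%) held both. The X1 letters and those of the interferon regulatory factor element were chosen after the windows had been read and longer forms searched, so the matches are a description. The letters AANNGAAA of an interferon regulatory factor element, in 22.8% of all windows, were in all 3, at 3 places in BTN3A2, 4 in BTN3A3 and 2 in BTN2A1, none of which overlapped the marked letters. The letters TTCNNNGAA of a gamma-activated site, in 7.66% of all windows, were in none of the 3. A further BTN3A2 window, chr6:26367928-26368227, held none of these motifs.

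In these cells BTN2A1 was the most abundant of the 5 per length of transcript. Its level over the 9 libraries was 52.6 ± 7.49 CPM (TMM-scaled counts for each M counts of a library, SD, n = 9), or 13.9 CPM per kb of merged exon. BTN2A2 followed at 34.0 ± 5.28 CPM and 5.31 CPM per kb. The BTN3A genes came lower, BTN3A1 at 3.08, BTN3A2 at 2.60 and BTN3A3 at 2.15 CPM per kb. On this per-length scale the 9 libraries spanned 11.0 to 17.0 for BTN2A1 and 4.06 to 6.06 for BTN2A2, which did not overlap each other. BTN3A1 (2.09 to 4.34), BTN3A2 (1.12 to 4.48) and BTN3A3 (1.51 to 3.26) overlapped widely, so their order is within the spread. Counts per library ran from 578 to 1903 for BTN3A1, 414 to 2309 for BTN3A2, 439 to 1334 for BTN3A3, 2626 to 4868 for BTN2A1 and 1317 to 3469 for BTN2A2. Among the 8 other genes of the butyrophilin family in the count file, BTN2A3P (437 to 851 counts) and the erythroid membrane protein gene ERMAP (594 to 1753 counts) were expressed. BTN1A1, BTNL2, BTNL3, BTNL8 and BTNL9 had at most 5, 7, 1, 4 and 5 counts in any library.

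The close likeness of these genes bears on how their reads could be counted. Of the 50-base stretches in the main annotated transcript, 10.2% for BTN3A1, 18.7% for BTN3A2 and 19.4% for BTN3A3 also occurred in a transcript of another gene, against 6.76% for BTN2A1 and 4.95% for BTN2A2. At 100 bases the shares were 5.23%, 7.18%, 7.45%, 0.967% and 0.775%. How the authors treated reads that fit several genes is not given in the sources used here, so the split between the BTN3A genes is less certain than their sum.

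BTN3A1, the phosphoantigen binder, stood higher with HIV-1+LTA than with HIV-1 in batches 2 and 3 and at a like level in batch 1. In batches 1, 2 and 3 its level was 20.3, 14.1 and 11.6 CPM with PBS. With HIV-1 it was 19.0, 13.0 and 12.2 CPM, and with HIV-1+LTA 19.7, 24.1 and 19.7 CPM. The HIV-1 and HIV-1+LTA groups did not overlap, while PBS of batch 1 was above 2 of the 3 HIV-1+LTA libraries. Group means were 15.3 ± 4.51, 14.7 ± 3.75 and 21.1 ± 2.54 CPM (SD, n = 3 each). In the fit with batch in the model, HIV-1+LTA differed from HIV-1 by a log2 fold change of 0.55 (SE 0.144) and from PBS by 0.50 (SE 0.143).

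BTN3A2, the relative without the intracellular domain, had the largest fitted difference of the 5 and the widest spread between batches. Its lead over BTN3A1 and BTN3A3 in the fitted difference was smaller than its SE. Its level was 24.7, 17.2 and 8.28 CPM with PBS in batches 1, 2 and 3, and 22.8, 14.6 and 7.86 CPM with HIV-1. With HIV-1+LTA it was 25.3, 31.5 and 12.5 CPM. Each HIV-1+LTA library was above the other 2 of its batch, but the groups overlapped, since batch 3 lay low in all of them. Of all genes, 17.5% were higher than PBS and 16.7% higher than HIV-1 in 3 of 3 batches. The share higher than both was not counted. Group means were 16.7 ± 8.20, 15.1 ± 7.46 and 23.1 ± 9.68 CPM (SD, n = 3 each). The fit gave HIV-1+LTA a log2 difference of 0.66 (SE 0.146) from HIV-1 and 0.51 (SE 0.144) from PBS.

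BTN3A3 followed BTN3A1 closely at a lower level. It stood at 14.2, 9.84 and 8.78 CPM with PBS, at 12.5, 9.77 and 8.56 CPM with HIV-1, and at 13.7, 18.5 and 13.8 CPM with HIV-1+LTA in batches 1, 2 and 3. The HIV-1 and HIV-1+LTA groups did not overlap, and PBS of batch 1 again lay inside the HIV-1+LTA range. Group means were 11.0 ± 2.90, 10.3 ± 2.00 and 15.3 ± 2.73 CPM (SD, n = 3 each). Fitted log2 differences of HIV-1+LTA were 0.59 (SE 0.149) from HIV-1 and 0.50 (SE 0.147) from PBS.

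**Figure D1:**
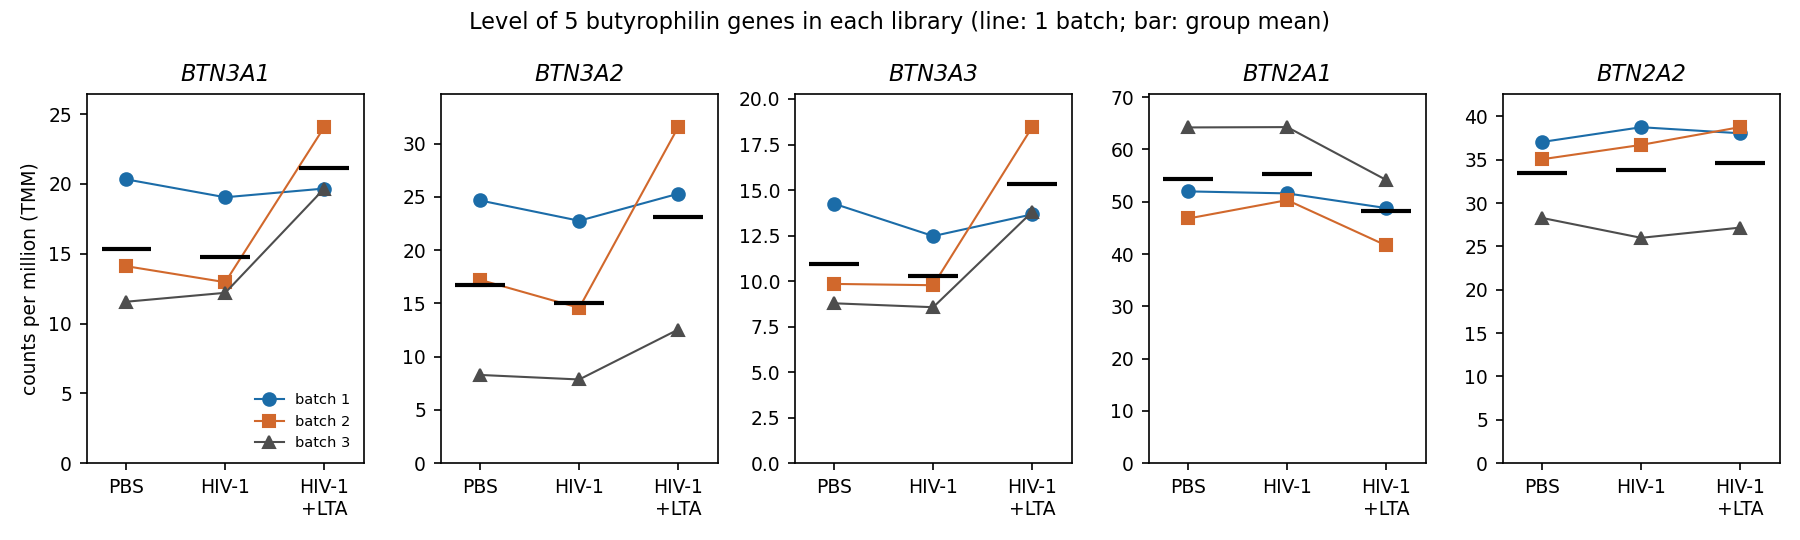
Level of each gene in CPM (TMM-scaled, y axis from 0, a scale for each gene) in each library, by treatment (x axis). Points joined by a line are 1 batch and black bars are group means; the lines of batches 2 and 3 bend up at HIV-1+LTA for the 3 BTN3A genes and those of batch 1 stay level, while BTN2A1 lies slightly lower there and BTN2A2 stays within 26.0 to 38.8 CPM.

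BTN2A1, the receptor-binding partner, was slightly lower with HIV-1+LTA than with HIV-1 or PBS in every batch. Of all genes, 16.3% were lower than PBS and 17.1% lower than HIV-1 in 3 of 3 batches. The share lower than both was not counted. The level of BTN2A1 was 52.0, 46.8 and 64.2 CPM with PBS and 51.6, 50.3 and 64.3 CPM with HIV-1 in batches 1, 2 and 3. With HIV-1+LTA it was 48.8, 41.6 and 54.2 CPM. The groups overlapped, at 54.3 ± 8.94, 55.4 ± 7.72 and 48.2 ± 6.28 CPM (SD, n = 3 each). Fitted log2 differences of HIV-1+LTA were -0.20 (SE 0.0554) from HIV-1 and -0.17 (SE 0.0552) from PBS.

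BTN2A2 differed least between treatments. It stood at 37.04, 35.1 and 28.3 CPM with PBS, 38.7, 36.7 and 26.0 CPM with HIV-1, and 38.0, 38.8 and 27.2 CPM with HIV-1+LTA. The groups overlapped throughout, and the fitted log2 difference of HIV-1+LTA was 0.04 (SE 0.0601) from HIV-1 and 0.04 (SE 0.0599) from PBS. The pseudogene BTN2A3P, which lies among the members, had -0.04 (SE 0.0940) and -0.10 (SE 0.0929).

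The difference rested on batches 2 and 3. For HIV-1+LTA minus HIV-1 within batch 1 the log2 CPM difference was 0.05 for BTN3A1, 0.15 for BTN3A2 and 0.13 for BTN3A3. In batch 2 it was 0.89, 1.11 and 0.92, and in batch 3 it was 0.69, 0.67 and 0.69. Against PBS the 3 genes gave -0.05, 0.04 and -0.06 in batch 1, 0.77, 0.87 and 0.90 in batch 2, and 0.76, 0.60 and 0.65 in batch 3. BTN2A1 gave -0.08, -0.27 and -0.25 against HIV-1, and BTN2A2 gave -0.03, 0.08 and 0.06. Among the 16117 genes, 8.66%, 15.8% and 14.6% differed by more than 0.5 in either direction between HIV-1+LTA and HIV-1 in batches 1, 2 and 3. All 3 BTN3A genes were higher with HIV-1+LTA than with HIV-1 in 3 of 3 batches, as were 16.7% of all genes, and BTN2A1 was lower in 3 of 3, as were 17.1%. Of all genes, 2.12% stood higher with no overlap between these groups, the pattern of BTN3A1 and BTN3A3.

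Between HIV-1 without LTA and PBS the edgeR difference of each of the 5 genes was smaller than its SE, for BTN3A2 by little. The fitted log2 fold change of HIV-1 against PBS was -0.05 (SE 0.144) for BTN3A1, -0.14 (SE 0.146) for BTN3A2, -0.09 (SE 0.149) for BTN3A3, 0.03 (SE 0.0551) for BTN2A1 and 0.01 (SE 0.0599) for BTN2A2. In DESeq2 with batch BTN3A2 had -0.15 (SE 0.140), which was larger than its SE. Within batches the differences ran from -0.24 (BTN3A2, batch 2) to 0.10 (BTN2A1, batch 2). BTN3A2 and BTN3A3 were lower with HIV-1 in 3 of 3 batches, as were 16.9% of all genes. The PBS and HIV-1 libraries overlapped for each of the 5.

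**Figure D2:**
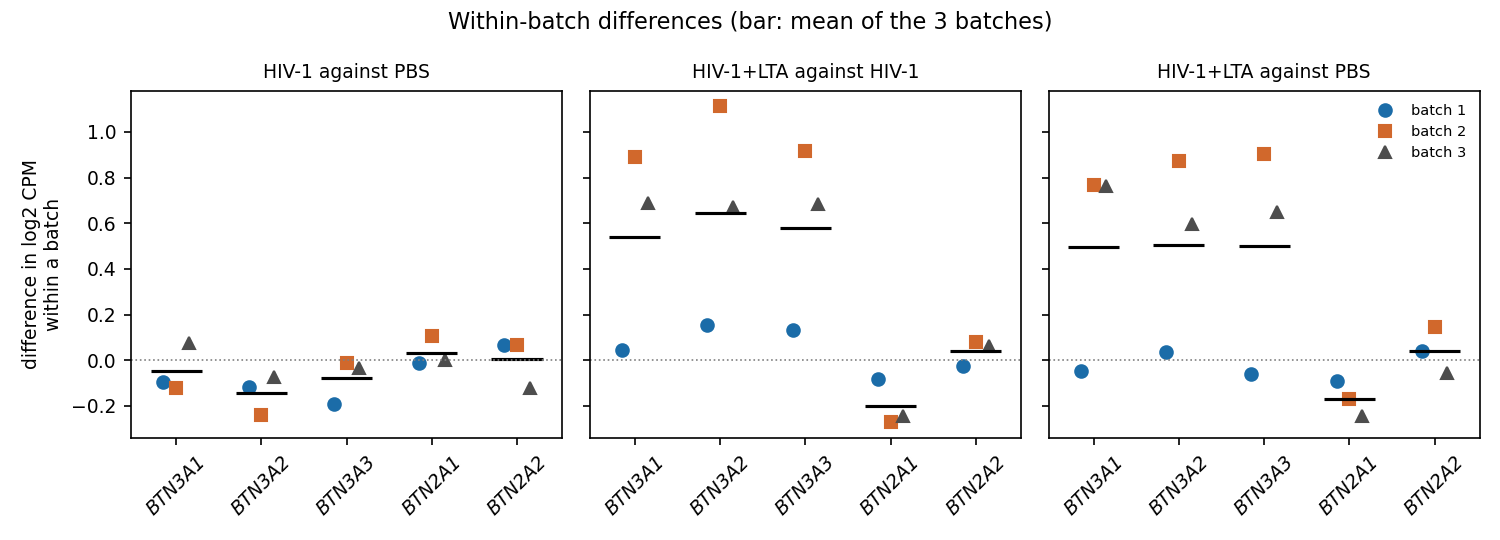
Difference in log2 CPM between 2 libraries of the same batch (y axis) for each gene (x axis) in the 3 comparisons. Each marker is 1 batch and the black bar is the mean of 3; the BTN3A genes lie near 0 in batch 1 and between 0.60 and 1.11 in batches 2 and 3 for both comparisons with HIV-1+LTA.

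Across all genes the number called between treatments depended on the tool. The edgeR quasi-likelihood test with batch in the model, at a Benjamini-Hochberg adjusted p below 0.05, called 0% of the 16117 genes in each of the 3 comparisons. At an unadjusted p below 0.05 it gave 678 genes for HIV-1 against PBS, 2486 for HIV-1+LTA against HIV-1, with 2709 when it was set against PBS. DESeq2 with batch and group called 1.82% of genes when HIV-1+LTA was set against HIV-1 (1.34% higher), 1.93% against PBS (0.964% higher) and 0.0150% for HIV-1 against PBS. Its shares, here and below, are of the genes to which it gave an adjusted p, 13401, 12239 and 19990 in these comparisons. The limma-voom fit with batch called 0 genes in each of them. No call is read for the 5 butyrophilins, which were chosen on these values. The comparisons share libraries, so they are not independent of each other. The authors' deposited table, which matches HIV-1+LTA against PBS, gives log2 fold changes of 0.50 (SE 0.139) for BTN3A1, 0.51 (SE 0.139) for BTN3A2, 0.50 (SE 0.147) for BTN3A3, -0.18 (SE 0.0693) for BTN2A1 and 0.04 (SE 0.0762) for BTN2A2. Single libraries moved the fitted values. Without HIV-1+LTA replicate 1, the library of batch 1, BTN3A1, BTN3A2 and BTN3A3 had 0.81, 0.91 and 0.84 against HIV-1 and 0.76, 0.77 and 0.76 against PBS in edgeR. Without HIV-1+LTA replicate 2 they had 0.38, 0.41 and 0.39 against HIV-1 and 0.33, 0.26 and 0.30 against PBS. The size of the difference thus depended on which HIV-1+LTA library was included.

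Within batches the BTN3A genes moved together, while between batches the balance of BTN3A2 and BTN3A1 changed, as given below. With batch means removed, the root mean square difference between 2 genes over the 9 libraries was 0.05 for BTN3A1 with BTN3A3, 0.06 for BTN3A2 with BTN3A3 and 0.07 for BTN3A1 with BTN3A2 (log2 CPM). It was 0.12 between BTN2A1 and BTN2A2 and 0.29 to 0.42 between a BTN3A and a BTN2A gene. Among 10608 other genes averaging 5 CPM or more, the 6 nearest to the summed BTN3A genes were HNMT, HPSE, UBA7, YPEL1, ITGB8 and PROS1. Their root mean square differences from that sum were 0.0356, 0.0569, 0.0581, 0.0631, 0.0645 and 0.0706, against a root mean square of 0.315 for the sum itself. HNMT, which encodes a histamine methyltransferase, differed by 0.14, 0.92 and 0.66 between HIV-1+LTA and HIV-1 in batches 1, 2 and 3, beside 0.11, 0.99 and 0.68 for the BTN3A sum. UBA7, which encodes the activating enzyme of the ubiquitin-like protein ISG15, differed by -0.04, 0.94 and 0.66. For the summed BTN2A genes, whose own root mean square was 0.0560, the 3 nearest were CCDC186 (0.00946), CLP1 (0.0109) and SEC23B (0.0114). These likenesses are over 9 libraries of 3 groups that share the same batches, and they describe these libraries only. With batch means removed they hold only differences between treatments within batches, on which the 5 genes were chosen. The part of sequence shared between the BTN3A genes was not tested.

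Genes that act with the butyrophilins were taken as lists. PPL, which encodes the cytolinker periplakin, a binding partner of the intracellular part of BTN3A1, was the only one of 6 expressed partner genes called between treatments, by DESeq2 with batch. DESeq2 called 1.82% of genes with an adjusted p against HIV-1 and 1.93% against PBS. In batch 3 PPL had only 28, 35 and 68 counts with PBS, HIV-1 and HIV-1+LTA. Its level in batches 1, 2 and 3 was 3.06, 2.54 and 0.560 CPM with PBS, 2.68, 2.10 and 0.606 CPM with HIV-1, and 3.14, 6.42 and 1.40 CPM with HIV-1+LTA. It was higher in HIV-1+LTA than in HIV-1 in 3 of 3 batches, and the groups overlapped. DESeq2 gave a log2 fold change of 1.05 (SE 0.268, adjusted p 0.0115) against HIV-1 and 0.88 (SE 0.265, adjusted p 0.0481) against PBS, while edgeR gave 1.03 and 0.86 with adjusted p of 0.171 and 0.205. ABCA1, a lipid exporter also known to carry phosphoantigens out of the cell, had 0.05 (SE 0.0705) against HIV-1 in edgeR.

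The mevalonate pathway, which makes the phosphoantigens that BTN3A1 binds, did not pass in either direction in any treatment comparison for any of its 11 expressed genes of 12, in edgeR or in DESeq2 with batch. Over all genes edgeR called 0% in each treatment comparison and DESeq2 at most 1.93%, so this says little about a list of this size. The median log2 fold change of the mevalonate genes for HIV-1+LTA against HIV-1 was 0.04 in edgeR, beside -0.00382 over all genes. FDPS, which uses up the phosphoantigen isopentenyl pyrophosphate, had 0.04 (SE 0.0487).

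None of 14 expressed transcriptional regulators passed for any treatment comparison in either tool. With 0% of all genes called by edgeR and at most 1.93% by DESeq2, this says little about the list. IRF1, an interferon-induced transcription factor, had a log2 difference of 0.22 (SE 0.116) between HIV-1+LTA and HIV-1. Its level in batches 1, 2 and 3 was 21.8, 19.9 and 17.9 CPM with HIV-1 and 21.2, 27.9 and 20.4 CPM with HIV-1+LTA. NLRC5, the activator of class I genes that works through the X1 box complex, had 0.13 (SE 0.100), and its difference was -0.01, 0.49 and -0.13 in batches 1, 2 and 3. The list median was 0.09, with 11 of 14 genes above 0.

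Of 15 genes of class I antigen presentation, DESeq2 with batch called 1 higher and 0 lower in HIV-1+LTA against HIV-1, and 3 higher and 0 lower against PBS, while edgeR called none. Over all genes with an adjusted p DESeq2 called 1.34% and 0.964% higher in these comparisons, and edgeR called 0%. PSMB9, an immunoproteasome subunit, differed by 0.66 on the log2 scale (SE 0.137, DESeq2 adjusted p 0.00130) from HIV-1 and by 0.72 (SE 0.137, adjusted p 0.00104) from PBS. Its differences between HIV-1+LTA and HIV-1 were 0.19, 1.05 and 0.68 in batches 1, 2 and 3. PSMB10, another immunoproteasome subunit (0.56, SE 0.146), and HLA-F, a nonclassical class I molecule (0.55, SE 0.158), were called against PBS in DESeq2, with adjusted p of 0.0259 and 0.0393. In edgeR 13 of 15 genes were above 0 against HIV-1, with a median of 0.24 beside -0.00382 over all genes. The batches did not share this evenly. HLA-B stood at 316, 311 and 101 CPM with HIV-1 and at 316, 449 and 101 CPM with HIV-1+LTA in batches 1, 2 and 3. ERAP2, like PSMB9, also differed in batch 3, by 0.10, 0.85 and 0.52 on the log2 scale in the 3 batches. Among 32 expressed genes within 500 kb of the butyrophilin cluster, 0 were called in either direction by either tool in any treatment comparison, and the median log2 fold change against HIV-1 was -0.04 in edgeR. With 0% of all genes called by edgeR and at most 1.93% by DESeq2, the lack of calls says little about these neighbours.

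**Figure D3:**
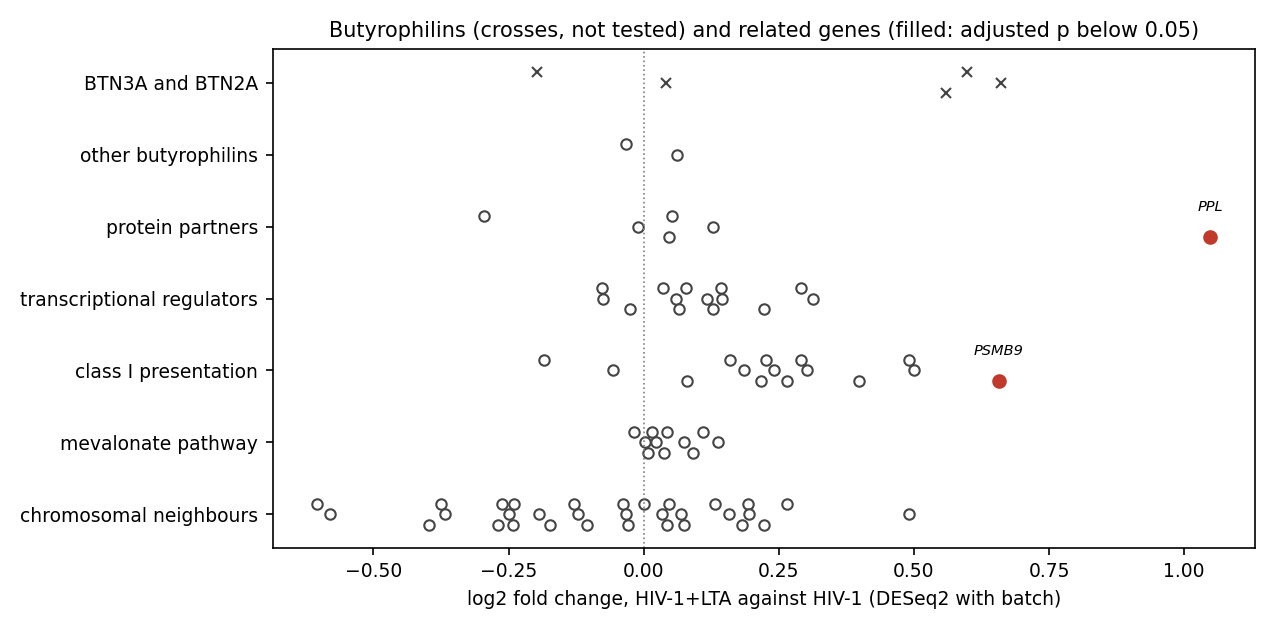
Log2 fold change of HIV-1+LTA against HIV-1 (DESeq2 with batch, x axis) for the 5 butyrophilins (crosses, shown with no test) and for related lists (y axis), 1 circle for each expressed gene, filled where the adjusted p was below 0.05. Among the lists the filled circles are PPL and PSMB9, and the mevalonate genes and chromosomal neighbours have only open circles.

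Contrasts between batches were not used to choose the genes and were tested. Batch 3 stood apart from the other batches across the series, with 71.2% of all genes called by edgeR against the mean of batches 1 and 2 (35.2% higher, 36.0% lower). All 5 butyrophilins were called, 4 lower and 1 higher. BTN3A2 was lower in batch 3 with a log2 fold change of -1.25 (SE 0.135, edgeR adjusted p 4.6e-06). BTN2A2 had -0.46 (SE 0.0533, adjusted p 8.3e-06), BTN3A1 -0.36 (SE 0.127, adjusted p 0.0233) and BTN3A3 -0.35 (SE 0.131, adjusted p 0.0326). BTN2A1 was higher, by 0.33 (SE 0.0474, adjusted p 5.7e-05). Scaling by total count alone shifted the median of all genes by -0.16 in this contrast and gave 4264 genes higher and 7367 lower, beside 5669 and 5809 with TMM. It gave BTN3A1 -0.52, BTN3A2 -1.41, BTN3A3 -0.51, BTN2A2 -0.62 and BTN2A1 0.17, with all 5 called in the same directions. Of the related lists, edgeR called 2 higher and 2 lower of 6 partner genes in batch 3, 6 and 4 of 11 mevalonate genes, 5 and 7 of 14 regulators, 2 and 11 of 15 class I genes, and 2 and 16 of 32 neighbours. The calls of BTN3A2, BTN2A1 and BTN2A2 held in each fit that left out 1 library. Those of BTN3A1 and BTN3A3 did not: in edgeR both were lost without PBS replicate 3 (-0.27 and -0.30), HIV-1 replicate 1 (-0.31 and -0.31), HIV-1 replicate 3 (-0.35 and -0.33) or HIV-1+LTA replicate 2 (-0.27 and -0.23), and BTN3A3 also without PBS replicate 1 (-0.26) or HIV-1+LTA replicate 3 (-0.41). Batch 2 against batch 1 gave 0 of 5 calls in edgeR, where 0.0310% of genes were called, with 1 of the 5 (BTN2A1) at an unadjusted p below 0.05. DESeq2 gave 0 of 5 calls there, and called 0.916% of the 11464 genes with an adjusted p. Without HIV-1+LTA replicate 1, edgeR called BTN3A1 and BTN3A2 lower in batch 2, where it called 1.31% of genes (0.398% lower).

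The balance between relatives changed with the batch. BTN3A2 had 1.12 to 1.31 counts per BTN3A1 count in the 6 libraries of batches 1 and 2 and 0.638 to 0.716 in the 3 of batch 3. BTN2A2 had 0.713 to 0.931 counts per BTN2A1 count in batches 1 and 2 and 0.404 to 0.502 in batch 3. BTN3A3 kept to 0.655 to 0.767 counts per BTN3A1 count in all 9 libraries. Among the summed BTN3A counts BTN3A2 held 39.1% to 43.1% in batches 1 and 2 and 27.3% to 28.9% in batch 3.

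**Figure D4:**
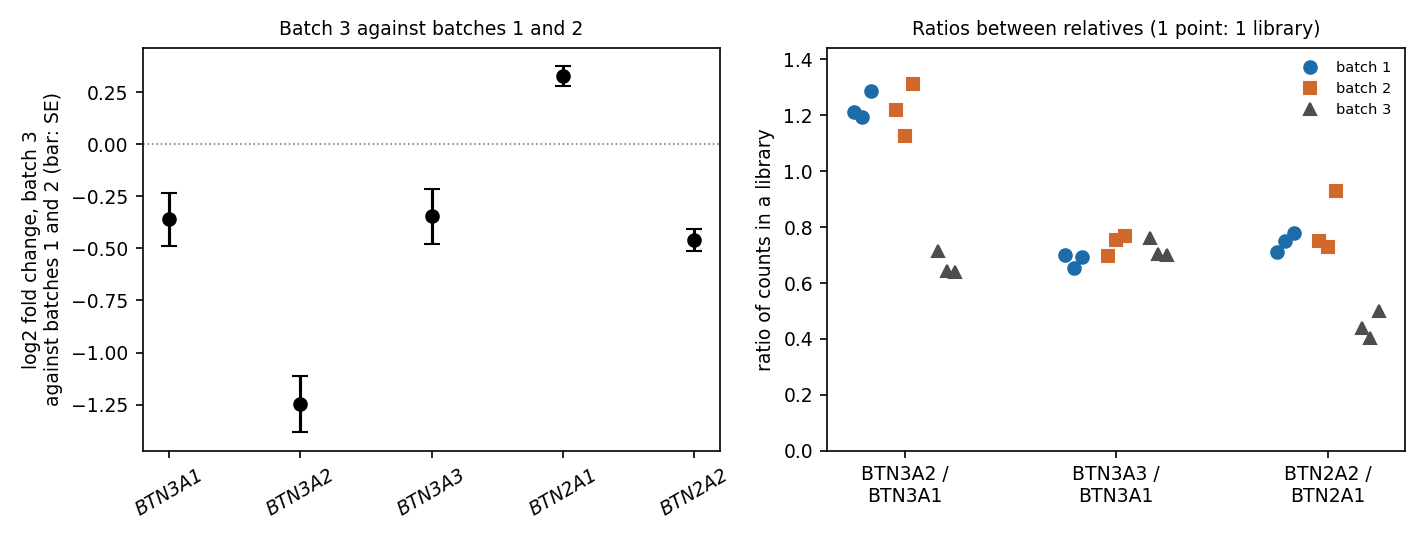
Left, log2 fold change of batch 3 against batches 1 and 2 for each gene, with bars of 1 SE; right, ratio of counts of 2 relatives, 1 point for each library, marked by batch (y axis from 0). BTN3A2 lies lowest on the left at -1.25, and on the right the batch 3 libraries lie below the others for BTN3A2 to BTN3A1 and BTN2A2 to BTN2A1 and among them for BTN3A3 to BTN3A1.

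The labelled cell type was checked against marker genes. Stellate or mesenchymal markers summed to 4661 to 9863 CPM, with 10 of 12 expressed; DES and LRAT, markers of quiescent or desmin-bearing stellate cells, had at most 21 and 2 counts in a library. T cell markers summed to 0.227 to 1.23 CPM with CD2, TRGC1 and TRGC2 at 0 in all 9 libraries. Monocyte or macrophage markers summed to 4.30 to 9.82 CPM with PBS, 5.29 to 7.95 CPM with HIV-1 and 6.31 to 11.2 CPM with HIV-1+LTA, mostly CD14, with FCGR3A at 0 in all libraries. The part of that small difference in the BTN3A values was not tested. B cell, hepatocyte and endothelial markers summed to at most 2.35, 2.01 and 2.05 CPM. In bulk RNA, fewer cells of a type and less RNA per cell cannot be told apart.

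The ChIP-seq libraries, 1 with PBS and 1 with HIV-1, are titled Lx2 cells but carry the cell line labels Lx3 and Lx5. This mismatch was not settled, and no antibody is named in the sources used here. The deposited list for HIV-1 held 166 peaks, 8 of them on chromosome 6. None lay within 100 kb of a butyrophilin of this cluster, and the nearest was 16.2 Mb away (hg19). With so few peaks on the chromosome, and 1 list without a replicate, the lack of a near peak says little about these genes.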

How the data were processed

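RNA-seq counts of 9 LX-2 libraries and 1 list of ChIP-seq peaks were used. Per the submitters' processing notes the tools were fastp, HTSeq, SAMtools, STAR, Bowtie2, bedtools and deepTools, on hg19; versions, strand setting and peak threshold are not given in the sources used here. Raw whole-number counts for each gene symbol were deposited. The authors also deposited a table with a mean signal (size-factor-scaled counts), log2 fold changes with their standard errors in log2, a Wald score and p-values, whose comparison is not named. All 19990 of its log2 fold changes lay within 0.01 of a DESeq2 fit of HIV-1+LTA against PBS with batch and group.

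Counts were fitted with the edgeR 4.0.16 quasi-likelihood test (TMM, filterByExpr, group and batch, 9 libraries in 1 fit, Benjamini-Hochberg over 16117 genes, adjusted p below 0.05). DESeq2 1.42.0 on genes with a total of at least 10 counts, limma-voom 3.58.1, other scalings, no filter, 6 libraries only, no batch term and leaving out libraries or batches were alternatives (R 4.3.3). CPM used TMM, and log2 CPM a prior count of 2. The SE given with an edgeR value was derived as the size of the log2 fold change over the square root of its F value. Lengths are merged exons of GENCODE v44 lifted to GRCh37, which may differ from the authors' annotation. Scripts were tested on simulated data. The replicate number is the batch in the labels, which pairs the libraries: deviations from group means correlated at 0.705 to 0.917 in the 9 same-batch pairs and at -0.835 to 0.764 in the 18 pairs from different batches, and the ranges overlap. No 2 libraries were copies (chi-square per degree of freedom at least 3.73 over 36 pairs).

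The genes, lists and tests were chosen with earlier results of these data known, so calls of the 5 members between treatments are not reported. Named by rule were all 5 members, list genes that passed in edgeR or DESeq2 with batch, PPL, IRF1, NLRC5, FDPS and ABCA1, and the 6 and 3 genes nearest to the BTN3A and BTN2A sums by root mean square difference. Some genes named by the rule are not reported here. BTN2A3P, ERMAP, the other butyrophilins, DES, LRAT, CD14 and FCGR3A were named after their values were seen.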

Additional observations from a re-analysis of the deposited data

How the results depend on the processing

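The direction of BTN3A1, BTN3A2 and BTN3A3 (higher) and of BTN2A1 (lower) in HIV-1+LTA against HIV-1 was the same in each of 32 alternatives, with ranges of 0.37 to 0.81, 0.40 to 0.93, 0.39 to 0.84 and -0.26 to -0.16. Against PBS the ranges were 0.33 to 0.78, 0.26 to 0.77, 0.28 to 0.80 and -0.23 to -0.11, with no change of direction. The genes were chosen on these differences and each alternative refits libraries of the same series, so a stable direction is only a description. No alternative held batch 1 alone, where BTN3A1 had -0.05 and BTN3A3 -0.06 against PBS. The number of genes called was not stable. With the replicate block edgeR called 0 genes in each treatment comparison, also with the other scalings, and limma-voom called 0 genes. Without the replicate block edgeR also called 0 genes. DESeq2 with the block called 3 genes for HIV-1 against PBS, 244 for HIV-1+LTA against HIV-1 alone, and 236 when it was set against PBS, and with no block it called 1, 1 and 0 genes. With no filter on low counts edgeR called 30, 1016 and 1045 genes, and with only the 6 libraries compared 2 genes for HIV-1 against PBS. Leaving out 1 library or batch moved the genes called in edgeR from 0 to 5, 0 to 2390 and 0 to 2648, and in DESeq2 from 0 to 46, 0 to 2108 and 0 to 2419. For batch 3 against batches 1 and 2, members called ran from 3 to 5 in both tools, and for batch 2 against batch 1 from 0 to 2 in edgeR and 0 to 3 in DESeq2; limma-voom lost BTN3A3 (adjusted p 0.0597). The cause was not tested. A leave-out that removed a library left a group with 2 libraries, and its spread was taken from all groups.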
